A study of Equus caballus with 12 samples.

Results

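The zona pellucida genes ZP2, ZP3 and ZP4, the growth factor genes GDF9 and BMP15, and the maternal factor genes NLRP5, OOEP, PADI6, KPNA7 and ZAR1 were followed in mature horse oocytes. These 10 genes were chosen by name. A gene was included when the study's supplementary lists paired its symbol with an Ensembl identifier of the expression table, which held for 6 of the 10 genes. The 6 genes were ZP2 (ENSECAG00000019961), ZP4 (ENSECAG00000010697), GDF9 (ENSECAG00000021088), BMP15 (ENSECAG00000023233), KPNA7 (ENSECAG00000000554) and ZAR1 (ENSECAG00000021644). For ZP3, NLRP5, OOEP and PADI6 no pair was found in the lists used here, so they were not analysed here. The table held 11425 genes in 12 samples. Names were found for 2569 of them, and the main lists used here in part are ordered by log2 fold change against FR, negative values first. Which genes could be named therefore depended on their direction, and ZAR1 was named from the VMAT vs. FR list alone. Directions of named genes are set beside those of the 2569 named genes as well as of all genes tested.

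RNA from pools of horse (Equus caballus) oocytes, 23 oocytes on average, was sequenced from the 3′ end of the transcripts with unique molecular identifiers. Oocytes came from slaughterhouse ovaries and were vitrified, that is, cooled so fast that they solidify as a glass without ice crystals. FR samples (n = 5) were fresh oocytes matured in vitro, VMAT samples (n = 3) were vitrified after in vitro maturation at metaphase II and warmed, and VIM samples (n = 4, named VGV in the labels) were vitrified immature at the germinal vesicle stage, warmed and then matured in vitro. All 3 groups were matured with their innermost cumulus layer in medium with serum, follicle-stimulating hormone and luteinizing hormone, then denuded and selected for a polar body. VIM oocytes were vitrified inside that layer and VMAT oocytes after denuding. Between warming and sampling, VIM oocytes went through the whole maturation and VMAT oocytes only through a short culture. FR and VMAT oocytes were matured together and assigned to their groups afterwards. VIM oocytes were set apart before maturation and matured after warming. Stage at vitrification, denuding, time since warming and a separate maturation therefore cannot be told apart between VIM and VMAT. In VIM vs. FR, vitrification and a separate maturation cannot be told apart. Of 5 pools made per group, 1 of VIM, 2 of VMAT and 0 of FR were not carried into the comparisons, on grounds of RNA amount, RNA integrity or, for VMAT, also read number. The values are normalized counts, which are read counts of a sample divided by its size factor, so they cannot show whether a sample held more or less mRNA in total.

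The growing oocyte builds these transcripts and stores them. Zona pellucida glycoproteins such as ZP2 and ZP4 form the extracellular coat that binds sperm. GDF9 and BMP15 are related growth factors of the transforming growth factor beta family, secreted by the oocyte, that act on the surrounding granulosa and cumulus cells. KPNA7 is an oocyte and early embryo importin alpha, an adaptor that carries proteins into the nucleus. ZAR1 binds maternal mRNAs and is needed for the passage from oocyte to embryo. A fully grown oocyte makes almost no new RNA, so that levels of stored mRNA in mature oocytes depend mainly on storage, polyadenylation and decay.

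The shallowest and the deepest library, with 1636620 and 12166950 reads on genes, were VMAT replicates 1 and 2. A single read was worth 3.11 normalized counts in the former and 0.125 in the latter. Intervals on reads are exact Poisson 95% intervals and cover counting error only. Of 20 oocyte marker genes, 14 had an identifier, and 10 of them were above 3 reads in every sample. FIGLA, OOSP2, ASTL and IZUMO1R were not. The summed normalized count of the 14 was 14664 to 22404 in VIM, 14594 to 33010.3 in VMAT and 17778 to 22996 in FR. BTG4 and DPPA3 had the highest medians (6704 and 7057) and weighed most in this sum, which also includes ZP2, ZP4, GDF9 and BMP15. Of 24 markers of cumulus, granulosa, theca, blood or vessel cells, 2 had an identifier. These were the hyaluronan synthase gene HAS2, at 254 to 2144, and the endothelial adhesion gene PECAM1, at 8.01 to 1450.1. Together they reached 924 to 3032 in VIM, 336 to 3205 in VMAT and 820.3 to 1788 in FR, and their part in the results was not tested. In pooled oocytes, fewer oocytes that hold a transcript and less transcript per oocyte cannot be told apart.

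No gene of the 6 passed the test between any groups. In 17 of the 18 comparisons of a gene between groups, the normalized counts of both groups overlapped. Groups without overlap were found for 4.5% of all genes tested in VIM vs. VMAT, for 3.19% in VMAT vs. FR and for 1.59% in VIM vs. FR. The exception was ZAR1, for which every VMAT sample lay below every FR sample. GDF9 had the smallest pooled standard deviation within groups of the 6 genes on the log2 scale, although within VIM alone KPNA7 varied less (coefficient of variation 41.0% against 46.5%). ZP2, ZP4, BMP15 and KPNA7 each had single samples far below the others.

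**Figure D1:**
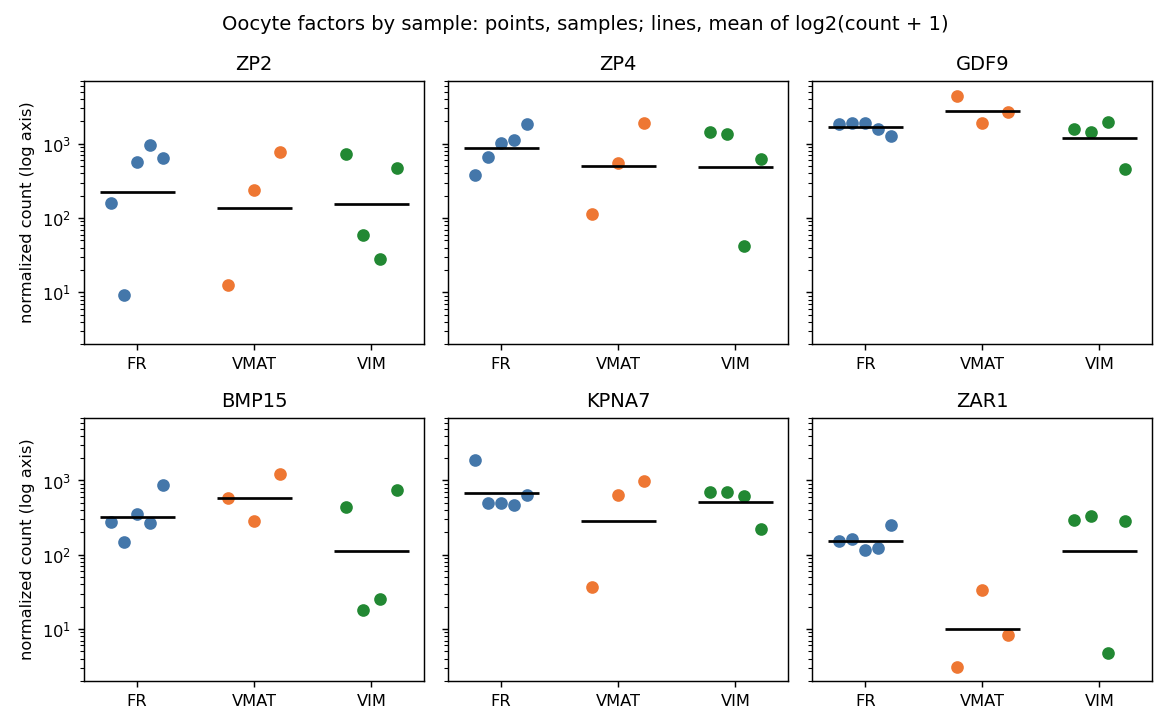
Normalized counts (log axis) of the 6 genes in each sample of FR (blue, n = 5), VMAT (orange, n = 3) and VIM (green, n = 4); points are samples and lines are the mean of log2(normalized count + 1). ZAR1 lies at 3.11 to 33.4 in VMAT and at 115 to 252 in FR, and GDF9 in FR lies within 1287 to 1918.

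The ZP2 normalized counts were 722, 58.7, 27.7 and 468 in VIM replicates 1 to 4. In VMAT replicates 1 to 3 they were 12.4, 238 and 784. In FR replicates 1 to 5 they were 161, 9.15, 574, 977 and 640.0. Each group thus held both low and high samples, and the groups overlapped over almost the whole range. Mean levels were 472 ± 389 in FR (SD, n = 5), 345 ± 397 in VMAT (SD, n = 3) and 319 ± 335 in VIM (SD, n = 4). The lowest values rested on 8 reads in FR replicate 2, 4 reads in VMAT replicate 1 and 23 reads in VIM replicate 3, against 1937 reads in FR replicate 4. With 8 reads the Poisson interval ran from 3.45 to 15.8 reads.

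For ZP4, VIM samples had normalized counts of 1454, 1339.8, 42.2 and 634, and VMAT samples of 115, 551 and 1918. The FR samples had 377, 663, 1021, 1126 and 1847. FR samples lay within 4.89-fold of each other, whereas VIM samples spanned 34.5-fold and VMAT samples 16.7-fold. Means were 1007 ± 555 in FR (SD, n = 5), 862 ± 941 in VMAT (SD, n = 3) and 867 ± 659 in VIM (SD, n = 4). The low samples were VIM replicate 3 (35 reads) and VMAT replicate 1 (37 reads), and these were also the lowest samples of their groups for ZP2.

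Both zona genes had negative log2 fold changes against FR in both vitrified groups, none of which passed the test. The log2 fold change of ZP2 was -0.54 (standard error, SE, 1.49) in VIM vs. FR and -0.73 (SE 1.66) in VMAT vs. FR. For ZP4 it was -0.88 (SE 0.97) and -0.83 (SE 1.06). Without VIM replicate 3, the VIM vs. FR values turned to 0.27 for ZP2 and 0.28 for ZP4. Leaving out VMAT replicate 1 turned the VMAT vs. FR values to 0.94 and 0.22. DESeq2 gave values nearer to 0 for ZP4, of -0.22 for VIM and -0.19 for VMAT against FR. Both comparisons share the FR samples. Between VIM and VMAT the log2 fold changes were 0.19 (SE 1.87) for ZP2 and -0.05 (SE 1.36) for ZP4.

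Another zona gene with an identifier, ZP1 (ENSECAG00000002989), was not among the 10 genes and was named by the rule for related genes. Its normalized counts were 9.21, 944, 548 and 20.5 in VIM, 2629, 169.7 and 542 in VMAT, and 12.9, 729, 679.6, 913 and 933 in FR. The low VIM samples of ZP1 (replicates 1 and 4) were not those of ZP2 or ZP4, whereas its low FR sample, replicate 1, was also the lowest FR sample of ZP4. The log2 fold change of ZP1 was -1.79 (SE 1.57, limma adjusted p = 0.902) in VIM vs. FR, where DESeq2 gave -0.77. In VMAT vs. FR it was 0.80 (SE 1.34), of opposite sign to ZP2 and ZP4, and between VIM and VMAT it was -2.60 (SE 1.69). None of these passed the test.

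Reads of ZP4 over reads of ZP2 in the same sample do not depend on the size factor. The ratio was 2.01, 22.8, 1.52 and 1.35 in VIM, 9.25, 2.32 and 2.45 in VMAT, and 2.35, 72.5, 1.78, 1.15 and 2.89 in FR. In 9 of the 12 samples it thus lay between 1.15 and 2.89, and in the other three ZP2 had 4 to 36 reads. On the log2 scale (with 0.5 read added to each gene) the mean ratio was 1.98 ± 2.35 in FR (SD, n = 5) and 1.63 ± 1.92 in VIM (SD, n = 4) (exact two-sided permutation test, p = 0.754). In VMAT it was 1.85 ± 1.04 (SD, n = 3), with p = 0.929 against FR in the same exact permutation test. These ratios were compared between samples only, and their test was chosen after the values had been seen.

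GDF9 had normalized counts of 1599.7, 1457, 1941 and 463 in VIM. In VMAT it had 4413, 1877 and 2640.0, and in FR 1865, 1883, 1918, 1569.5 and 1287. VMAT replicates 1 and 3 lay above all other samples, and VIM replicate 4 lay below them. Every sample held at least 473 reads of GDF9. Means were 1705 ± 272 in FR (SD, n = 5), 2977 ± 1301 in VMAT (SD, n = 3) and 1365 ± 635 in VIM (SD, n = 4). The coefficient of variation in FR was 15.9%.

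For BMP15, the VIM samples had normalized counts of 439.5, 17.9, 25.3 and 756, the VMAT samples 576, 282 and 1220.4, and the FR samples 280.3, 149, 349, 268 and 879. VIM samples formed a high pair (replicates 1 and 4) and a low pair (replicates 2 and 3) with 11 and 21 reads, and no other sample was as low as the latter. Means were 385 ± 285 in FR (SD, n = 5), 693 ± 479.8 in VMAT (SD, n = 3) and 309.7 ± 357 in VIM (SD, n = 4).

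In VMAT vs. FR the log2 fold changes of both growth factor genes were positive, and in VIM vs. FR both were negative, without passing the test. GDF9 had 0.73 (SE 0.71) and -0.49 (SE 0.60), and BMP15 had 0.86 (SE 1.19) and -1.51 (SE 1.35), in this order. The direct comparison of VIM vs. VMAT gave -1.22 (SE 0.91) for GDF9 and -2.36 (SE 1.66) for BMP15, each with a limma adjusted p of 0.967. Exact two-sided permutation tests of VIM vs. VMAT gave p = 0.0857 for GDF9 and p = 0.286 for BMP15, where 0.0286 is the smallest p that 4 and 3 samples allow. In VMAT vs. FR the exact permutation p was 0.0536 for GDF9 and 0.25 for BMP15. The size for BMP15 depended on the tool and on single samples. In VIM vs. FR it was -0.35 in both DESeq2 and edgeR, -0.65 without VIM replicate 2, -0.80 without replicate 3 and -2.42 without replicate 4. Between VIM and VMAT it was -1.16 in DESeq2, -1.03 in edgeR and -1.50 without VIM replicate 2. For VMAT against FR it was 0.33 without VMAT replicate 3 and 1.38 without replicate 2. For GDF9, leaving out VIM replicate 4 gave -0.03 in VIM vs. FR and -0.76 between VIM and VMAT, and leaving out VMAT replicate 1 gave 0.40 in VMAT vs. FR.

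The ratio of GDF9 reads to BMP15 reads within a sample was 3.64, 81.3, 76.7 and 0.612 in VIM. In VMAT it was 7.66, 6.65 and 2.16, and in FR 6.65, 12.7, 5.49, 5.85 and 1.46. VIM thus held both the highest and the lowest ratios of all samples. On the log2 scale the means were 2.39 ± 1.13 in FR (SD, n = 5), 2.26 ± 0.999 in VMAT (SD, n = 3) and 3.42 ± 3.44 in VIM (SD, n = 4). An exact two-sided permutation test of the mean log2 ratio gave p = 0.548 between VIM and FR and p = 0.929 between VMAT and FR. It compared means only, and the wider spread in VIM was not tested. The test of this ratio was also chosen after the values had been seen.

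**Figure D2:**
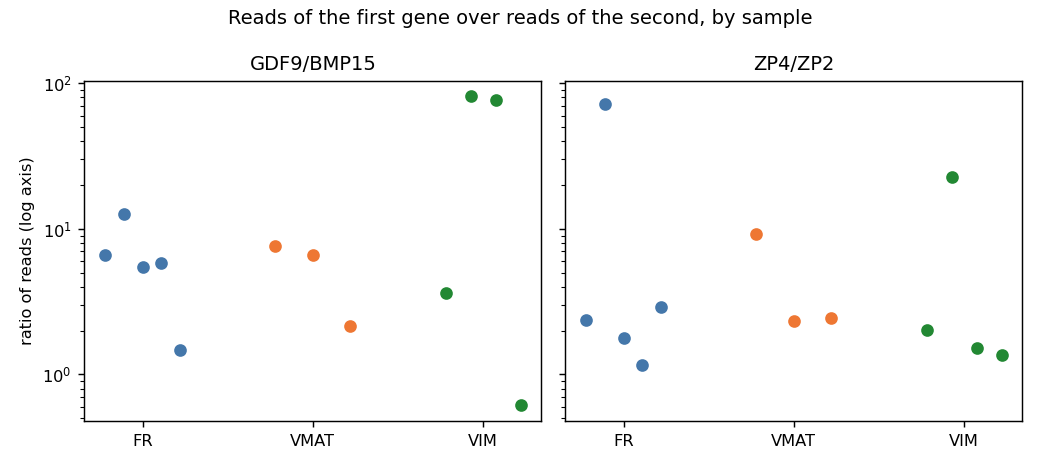
Reads of GDF9 over reads of BMP15 (left) and of ZP4 over ZP2 (right) in each sample (points, log axis) of FR, VMAT and VIM. The GDF9/BMP15 ratio runs from 1.46 to 12.7 in FR and from 0.612 to 81.3 in VIM, and the ZP4/ZP2 ratio is high in single samples of every group.

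KPNA7 had normalized counts of 710.2, 691, 613 and 221 in VIM, of 37.3, 637 and 969 in VMAT, and of 1907, 492, 497, 466 and 646 in FR. Most samples of the 3 groups lay between 466 and 969, with FR replicate 1 above this range and VMAT replicate 1 (12 reads) and VIM replicate 4 below it. Means were 802 ± 622 in FR (SD, n = 5), 548 ± 472 in VMAT (SD, n = 3) and 559 ± 229 in VIM (SD, n = 4). The log2 fold change was -0.41 (SE 0.84) in VIM vs. FR and -1.23 (SE 1.19) in VMAT vs. FR. The latter rested on VMAT replicate 1, the shallowest sample, and was 0.22 without it, -0.56 in DESeq2 and -0.39 in edgeR. In VIM vs. FR it was -0.04 without FR replicate 1 and -0.01 without VIM replicate 4. Between VIM and VMAT it was 0.82 (SE 1.42), with 0.07 in DESeq2, and it turned to -0.24 in edgeR and to -0.63 without VMAT replicate 1.

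ZAR1 had normalized counts of 3.11, 33.4 and 8.25 in VMAT and of 151, 165, 115, 124 and 252 in FR. In VIM they were 298, 337, 4.82 and 283. All VMAT samples lay below all FR samples. In VIM, replicates 1, 2 and 4 lay above every FR sample, and replicate 3 lay below them all, next to the VMAT samples. Means were 161 ± 54.4 in FR (SD, n = 5), 14.9 ± 16.2 in VMAT (SD, n = 3) and 231 ± 152 in VIM (SD, n = 4), so that the FR mean was 10.8 times the VMAT mean.

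The VMAT values of ZAR1 rested on 1, 267 and 7 reads, and VIM replicate 3 on 4 reads. At the lowest FR level, 37.1, 921 and 97.8 reads would have been counted in the 3 VMAT samples and 95.7 reads in VIM replicate 3. The upper ends of the Poisson intervals were 5.57, 301 and 14.4 reads in VMAT and 10.2 reads in VIM replicate 3. These intervals cover counting error only. The value in VMAT replicate 1 was under the 3 reads taken as detectable. Scaled by the reads on genes (RPM), with no size factor, ZAR1 was at 0.611 to 21.9 in VMAT and 47.6 to 98.4 in FR, again without overlap.

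In VMAT vs. FR, the log2 fold change of ZAR1 was -3.83 (SE 1.93), with a limma adjusted p of 0.95 (0.0542 unadjusted). The exact two-sided permutation test gave p = 0.0179, the smallest that 3 and 5 samples allow, in 1 of 18 such tests. Groups with VMAT below FR without overlap were found for 1.23% of the 8305 genes tested (102 genes) and for 2.41% of the 2569 named genes, against 1 of the 6 genes here. Since the name of ZAR1 was found through a negative value in this contrast, these tests are given as a description. With recovered reads, the adjusted p was 0.0623 in DESeq2 and 0.714 in edgeR. Without VMAT replicate 2, the deepest sample, DESeq2 gave an adjusted p of 0.0122 and a log2 fold change of -4.76. This was the only setting tried in which 1 of the 6 genes passed both thresholds. That run called 701 of 8656 genes tested and was chosen after the data had been seen. Over the settings tried, the log2 fold change lay between -4.76 and -2.92 and the adjusted p between 0.0122 and 0.999.

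In VIM vs. VMAT the log2 fold change of ZAR1 was 3.38 (SE 2.48, limma adjusted p = 0.967), with VIM replicate 3 inside the VMAT range (exact two-sided permutation test, p = 0.114). In VIM vs. FR it was -0.46 (SE 1.48), a sign set by VIM replicate 3. Without that sample it was 0.97, and it was 0.50 in DESeq2 and 0.41 in edgeR with all samples.

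**Figure D3:**
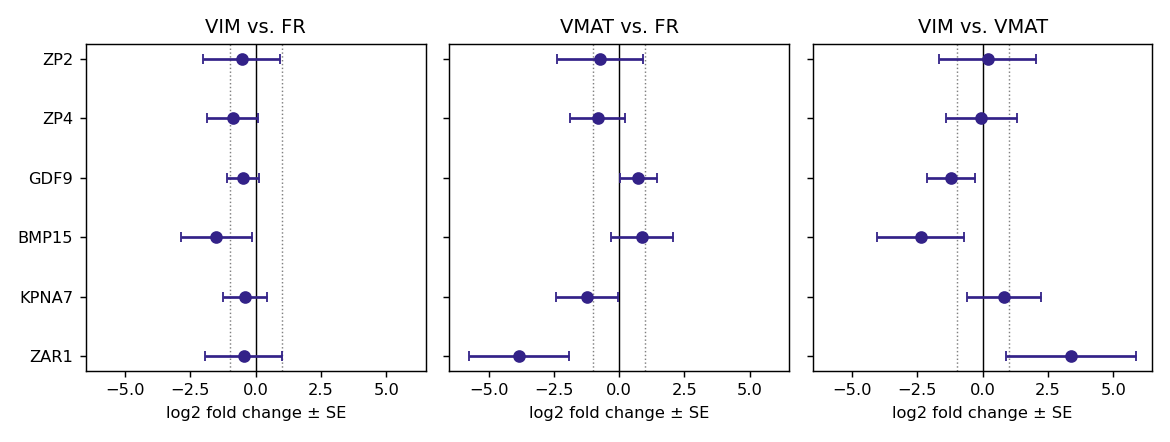
Log2 fold changes (limma, points) with their standard errors (bars) for the 6 genes in VMAT vs. FR, VIM vs. FR and VIM vs. VMAT; dotted lines mark 1 log2 unit in each direction. The ZAR1 values of 3.38 in VIM vs. VMAT and -3.83 in VMAT vs. FR lie farthest from 0, and no gene passed the adjusted threshold.

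DE genes were those with a limma p of 0.05 or less after Benjamini-Hochberg adjustment over all genes tested and a log2 fold change of 1 or more in either direction. All 6 genes were tested each time, and 0 of 6 were DE in any of the 3 comparisons (first VIM and then VMAT against FR, then VIM against VMAT, an order kept here). The background was the same, with 0.0% of 7351, 8305 and 7627 genes called by limma. At an unadjusted p under 0.05, limma had 0 of the 6 genes in each comparison, against 3.78%, 3.62% and 2.98% of all genes tested. DESeq2 on recovered reads called 6.87%, 4.26% and 3.87% of the genes tested and 0 of the 6 genes, and edgeR 0.0%, 0.012% and 0.0131% and 0 of 6. The limma adjusted p of the 6 genes started at 0.967 for VIM vs. VMAT, at 0.95 for VMAT vs. FR and at 0.903 for VIM vs. FR.

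In VIM vs. FR the log2 fold change was negative for 6 of 6 genes, against 53.1% of all genes tested, with a median of -0.51 against -0.12. Of the 2569 named genes, 59.0% were negative, with a median of -0.27. The signs were not stable, since those of ZP2, ZP4 and ZAR1 turned without VIM replicate 3. In VMAT vs. FR it was negative for 4 of 6 genes (49.7% of all and 59.6% of named genes), with a median of -0.78 against 0.01 and -0.31. In VIM vs. VMAT it was negative for 3 of 6 genes (52.2% of all and 49.2% of named genes), with a median of 0.07 against -0.08 and 0.02. In either direction, 1 log2 unit or more was reached by 1, 2 and 3 of the 6 genes, against 54.6%, 55.9% and 57.6% of all genes.

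The spread between samples of the same group was described by the standard deviation of log2(normalized count + 1) within groups. Over 4858 genes with a mean normalized count of at least 50, its median was 2.85, and 6 of 6 genes lay below it. GDF9 had 0.64, KPNA7 1.40, BMP15 1.77, ZP4 1.77, ZAR1 1.83 and ZP2 2.63. Only 1.52% of the 4858 genes had a smaller standard deviation than GDF9. This measure was smaller at higher levels, so each gene was also set beside the genes whose mean was within 2-fold of its own. Of those, 7.81% had a smaller standard deviation than GDF9 (512 genes), 4.5% than ZAR1 (2266 genes), 18.6% than BMP15 and 21.7% than KPNA7. ZP4 and ZP2 were close to the middle, with 49.8% and 46.5%. ZAR1 was not steady in itself, since it spanned 70.0-fold within VIM and 10.7-fold within VMAT. VMAT replicates 1 and 3 held only 1 and 7 reads of it.

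**Figure D4:**
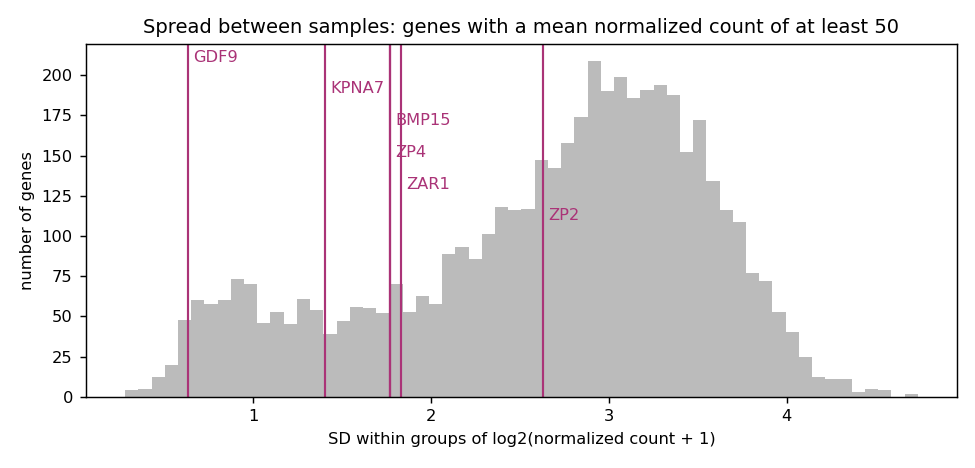
Number of genes by the standard deviation within groups of log2(normalized count + 1), over 4858 genes with a mean normalized count of at least 50; vertical lines mark the 6 genes. GDF9 (0.64) lies at the low end and ZP2 (2.63) is nearest to the median of 2.85.

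Low values did not fall on the same genes in every sample. A value under 0.1 times the gene's median over the 12 samples was found in 10 of 72 gene and sample combinations (13.9%), against 16.4% over 2528 genes with a median of at least 50. VIM replicate 3 was low in 4 of 6 genes (ZP2, ZP4, BMP15 and ZAR1), against 19.4% of all genes in that sample. VMAT replicate 1 was low in 3 genes (ZP2, KPNA7 and ZAR1), against 26.5% of all genes. Of the other samples, VIM replicate 2 (BMP15), VMAT replicate 3 (ZAR1) and FR replicate 2 (ZP2) were low in 1 gene each. In VMAT replicate 2, with the most reads, 0 of 6 genes and 2.69% of all genes were that low. GDF9 was the only one of the 6 genes with no such sample. The 6 genes made up 0.0871% to 0.261% of reads, with the lowest share in VIM replicate 3 and the highest in VMAT replicate 3.

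**Figure D5:**
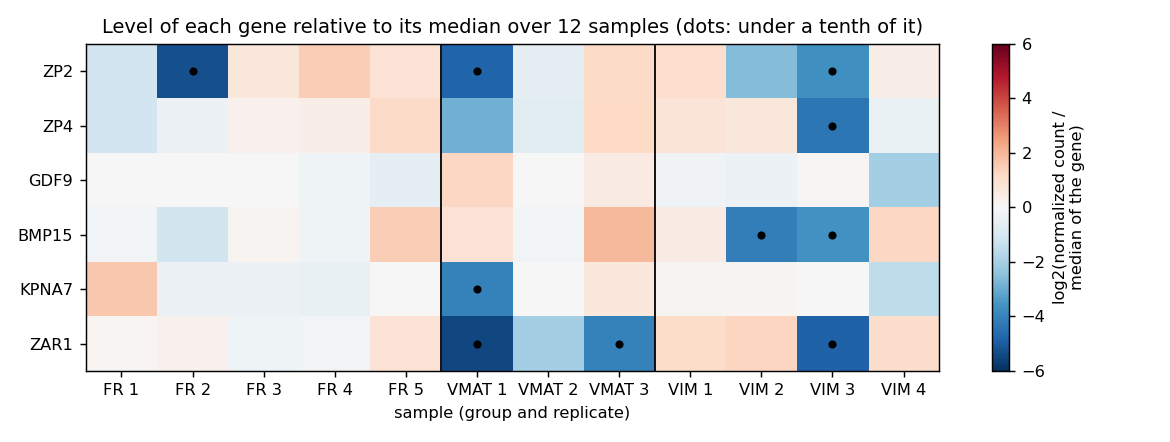
Log2 of the normalized count over the gene's median across the 12 samples (colour; blue below, red above the median) for the 6 genes (rows) in each sample (columns, by group and replicate); dots mark values under 0.1 times the median. VIM replicate 3 has 4 dots and VMAT replicate 1 has 3, while GDF9 has none.

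Patterns over the 12 samples, which differ in group and depth, were compared by Pearson's r and Spearman's rho of log2(normalized count + 1), as a description. The zona genes ZP2 and ZP4 had r = 0.67 and rho = 0.69, and r was 0.74 without the 2 samples farthest from the median of ZP2. ZP2 and BMP15 had r = 0.53 and rho = 0.49, and r was 0.88 without those 2 samples. For ZP4 and ZAR1, r was 0.65 and rho 0.48, but r was -0.10 without the 2 samples farthest from the median of ZP4. For GDF9 and BMP15 both were near 0 (r = -0.03, rho = 0.02). GDF9 and ZAR1 ran in opposite directions, with r = -0.68 and rho = -0.84, and r was -0.74 without the 2 samples farthest from the median of GDF9.

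Among 4858 genes, the gene most like ZP2 was SDF2L1 (r = 0.95, rho = 0.90), which encodes an endoplasmic reticulum protein. Most like ZAR1 was UTP18 (r = 0.93, rho = 0.80), a ribosomal RNA processing factor. KPNA7 was most like EIF4E1B (r = 0.92, rho = 0.52), an oocyte form of the cap-binding translation factor. GDF9 was most like the deubiquitinase gene USP45 (r = 0.90, rho = 0.83), ZP4 like the mitochondrial chaperonin gene HSPE1 (r = 0.90, rho = 0.55) and BMP15 like RPN1 (r = 0.90, rho = 0.62), a subunit of the oligosaccharyltransferase. Without the 2 samples farthest from the median of the first gene, r stayed at 0.90 for ZP2 and 0.84 for ZAR1, and was 0.67 for KPNA7, 0.50 for GDF9, 0.35 for ZP4 and 0.47 for BMP15. Each partner was picked as the highest of all these correlations over 12 samples, so its r is high by selection. An r of at least 0.8 was reached by 12 genes for BMP15 and up to 22 genes for ZP2. Shared regulation was not tested.

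Genes that work with these factors were taken from lists by function, and 0 of them were DE in limma in any comparison. Among the 2569 named genes, an unadjusted p under 0.05 was found for 3.89% in VIM vs. VMAT, for 4.52% in VMAT vs. FR and for 5.02% in VIM vs. FR. For fertilization partners of the zona, 5 of 8 listed genes had an identifier and 0 of 5 had an unadjusted p under 0.05. ASTL (ENSECAG00000011307), the protease that cleaves ZP2 after fertilization, was at 1.84, 0, 2.41 and 1.96 in VIM, and at 18.3, 3.43, 281, 31.3 and 1.43 in FR. In VMAT it was at 12.4, 45.5 and 1.18. All VIM samples held 0 to 3 reads of ASTL, and FR replicates 2 and 5 held 3 and 2 reads, so the groups overlapped. Its log2 fold change in VIM vs. FR was -2.96 (SE 2.03, limma adjusted p = 0.902), and DESeq2 on recovered reads gave -5.40 with an adjusted p of 0.0340. Of the subcortical maternal complex and its partners, to which NLRP5, OOEP and PADI6 belong, 2 of 11 listed genes had an identifier. TLE6 (ENSECAG00000022366), a member of the complex, was at 1.23, 843, 0 and 459.6 in VIM, at 3.11, 18.4 and 3.54 in VMAT and at 2.29 to 90.3 in FR. Between VIM and VMAT the log2 fold change of TLE6 was 2.10 (SE 2.92, limma adjusted p = 0.989), and DESeq2 gave 5.34 (adjusted p = 0.0941). Against FR it was 0.61 (SE 2.41) in VIM, where DESeq2 gave 3.07, and -1.49 (SE 2.52) in VMAT. NLRP4 (ENSECAG00000020602) was at 4.91 to 389 in VIM, 17.7 to 124 in VMAT and 4.31 to 312 in FR. Its log2 fold changes against FR were 0.56 (SE 2.05) for VIM and 0.85 (SE 2.16) for VMAT. Between VIM and VMAT it had -0.30 (SE 2.37). The sign turned in both count tools for VMAT vs. FR (-0.22 in DESeq2, -0.34 in edgeR) and VIM vs. VMAT (0.87 and 0.82). In VIM vs. FR it stayed positive (0.62 and 0.42).

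For GDF9 and BMP15 signalling, 14 of 24 listed genes were tested. The median log2 fold change against FR was 0.38 for VIM and 0.14 for VMAT, and that of VIM against VMAT was 1.07, with -0.27, -0.31 and 0.02 over the named genes. One gene had an unadjusted p under 0.05, SMAD5 (ENSECAG00000018506), which transmits the signal of BMP receptors. SMAD5 was at 9.34, 214 and 3.54 in VMAT, at 1306, 589, 385, 578 and 334 in FR, and at 232, 378, 271 and 174 in VIM. All VMAT samples thus lay below all FR samples, with 3 reads each in VMAT replicates 1 and 3 and 1710 reads in replicate 2. Such a separation was found for 1.23% of the 8305 genes tested and for 2.41% of the 2569 named genes. SMAD5 was named for its small limma p, so its separation is given as a description. Its log2 fold change in VMAT vs. FR was -4.71 (SE 1.57), with a limma adjusted p of 0.95 (0.00488 unadjusted) and a DESeq2 value of -3.17 (adjusted p = 0.209).

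BMP6 (ENSECAG00000020015), a related ligand, was at 327, 359, 964 and 379 in VIM and at 37.3, 152 and 14.1 in VMAT, without overlap. In FR it was at 426, 5.72, 429, 594 and 263. Between VIM and VMAT it had a log2 fold change of 3.35 (SE 1.78, limma adjusted p = 0.967). Groups without overlap, in either direction, were found for 4.5% of the 7627 genes tested in that comparison. SMURF2 (ENSECAG00000011935), a ubiquitin ligase for SMAD proteins, had log2 fold changes against FR of 2.34 in VIM (1.33 in DESeq2) and 2.54 in VMAT, with 7 reads in FR replicate 5 against 95 to 1144 in the other FR samples.

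In the nuclear import list, to which KPNA7 belongs, 8 of 16 genes were tested, and 0 had an unadjusted p under 0.05. Median log2 fold changes against FR were -1.08 for VIM and -0.69 for VMAT, against -0.27 and -0.31 over the named genes. The importin alpha gene KPNA4 (ENSECAG00000023235) had 3.30 (SE 1.74, limma adjusted p = 0.902) in VIM vs. FR, where DESeq2 gave 1.49. FR replicates 1 and 5 held 2 reads each of KPNA4, against 248 to 434 in the other FR samples, and the groups overlapped. The Ran-binding gene RANBP1 (ENSECAG00000017197) had -2.06 (SE 1.19) in VMAT vs. FR and the import receptor gene TNPO1 (ENSECAG00000024424) -2.52 (SE 1.54) in VIM vs. FR. VIM replicate 2 held 1 read of TNPO1, against 121 to 149 in the other VIM samples.

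Of maternal mRNA storage, translation and decay genes, to which ZAR1 belongs, 13 of 29 were tested. At an unadjusted p under 0.05, 1 was higher and 1 lower in VIM vs. FR, 1 was lower in VMAT vs. FR and 1 was higher in VIM vs. VMAT. YTHDF2 (ENSECAG00000023108), a reader of methylated adenosine that directs mRNA to decay, was at 255, 4.89, 6.03 and 1.96 in VIM, 6.22, 238 and 3.54 in VMAT, and 237 to 959.6 in FR. VIM replicates 2 to 4 held 3, 5 and 2 reads of YTHDF2, and VMAT replicates 1 and 3 held 2 and 3. VIM replicate 1 (415 reads) and VMAT replicate 2 (1900 reads) lay inside the FR range, so the groups overlapped. Against FR, the log2 fold change of YTHDF2 was -5.30 for VIM (SE 1.59, limma adjusted p = 0.902). For VMAT it was -4.72 (SE 1.61, limma adjusted p = 0.95). DESeq2 gave -3.20 (adjusted p = 0.0824) for VIM and -2.96 (adjusted p = 0.288) for VMAT. EIF4ENIF1 (ENSECAG00000000311), which binds the cap-binding factor in repressed mRNPs, was at 2374, 2866, 2837 and 813 in VIM and at 890.0, 878 and 33.0 in VMAT. In FR it was at 18.3, 18.3, 1199, 1638 and 1762. FR replicates 1 and 2 held 17 and 16 reads of EIF4ENIF1, and VIM overlapped with both other groups. The log2 fold change of VIM against FR was 2.91 (SE 1.24, limma adjusted p = 0.902), where DESeq2 gave 1.26 (adjusted p = 0.783). Against VMAT it was 2.74 (SE 1.14, limma adjusted p = 0.967), where DESeq2 gave 1.95 (adjusted p = 0.227).

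Of oocyte transcription factors and chromatin genes, 10 of 18 were tested and 0 had an unadjusted p under 0.05. FIGLA (ENSECAG00000024203), the transcription factor that activates zona pellucida genes in the oocyte, was above 30 reads in 1 of 4 VIM, 2 of 3 VMAT and 3 of 5 FR samples, with a log2 fold change of -3.27 (SE 2.01) in VIM vs. FR (-1.90 in DESeq2). The DNA methyltransferase genes DNMT1 (ENSECAG00000026909) and DNMT3A (ENSECAG00000025086) were present in all samples, at 1229 to 6272 and 1332 to 6791. Their limma log2 fold changes lay between -0.80 and 0.80 in all 3 comparisons. Values outside this range were DNMT3A in VIM vs. VMAT (1.10 in DESeq2, 0.94 in edgeR) and DNMT1 in VMAT vs. FR (-0.97 in both).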

How the data were processed

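The deposited table held normalized counts (a signal: reads per gene divided by a size factor) that the authors made from 3′ reads with Trim Galore, STAR on EquCab3.0, UMI-tools, RSEM and DESeq2. Whole reads were recovered for 100.0% of values (tolerance 0.01 reads). Depth was 1636620 to 12166950 reads on genes. Identifiers were paired with names from the study's supplementary lists, used here in part. The authors' fold changes and p-values in those lists were not used as results. The main test was limma 3.58.1 (R 4.3.3) on log2(normalized count + 1), between the samples of 2 groups, for genes detected in a number of samples no less than the size of the smaller group, with Benjamini-Hochberg adjustment over all genes tested. edgeR 4.0.16 (quasi-likelihood) and DESeq2 1.42.0 on recovered reads, another pseudocount, filter or scaling, a replicate block and leaving out each sample were alternatives. Exact permutation tests (scipy 1.17.1) covered single genes. Fits were also run on simulated reads with large set changes and a far smaller spread between samples than here. That run checks the code and cannot show the power of the fits in these data. Fold changes on this scale understate changes of low genes. Samples are pools, and nothing says that pools came from separate animals, so p-values measure only the spread between these samples. Every gene of the set with an identifier was named, with the gene most like it, and up to 3 genes of each list with the smallest limma p. The genes and lists were chosen with earlier results of these data known.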

Additional observations from a re-analysis of the deposited data

Results flagged for a closer look

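In groups of 4 or 5 samples, the highest or lowest sample was compared with its nearest neighbour relative to the range of the group (Dixon's criterion at 95%). For the genes, the criterion was applied to normalized counts, not to log2 values. The whole search covered 14 groups and marked 3 of them. For normally distributed values chance alone would mark about 1 in 20 groups, or 0.7 of 14. Whether these counts meet that condition was not tested. BMP15 in FR replicate 5 stood at a normalized count of 879, with the other FR samples at 149 to 349. KPNA7 in FR replicate 1 stood at 1907, with the other FR samples at 466 to 646. ZAR1 in VIM replicate 3 stood at 4.82, with the other VIM samples at 283 to 337. The causes were not tested.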

How the results depend on the processing

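No alternative with limma, edgeR or DESeq2 on all samples called any of the 6 genes. The number of DE genes over the whole table was 0 in limma and moved with DESeq2 to 295 in VIM vs. VMAT, to 354 in VMAT vs. FR and to 505 in VIM vs. FR. With edgeR it was 1 in VIM vs. VMAT and 1 in VMAT vs. FR, and limma without a mean trend gave 3 in VIM vs. FR. Leaving out single samples gave 0 to 701 DE genes in VMAT vs. FR, with 0 in limma and 206 to 701 in DESeq2 (470 and 701 without VMAT replicates 1 and 2, and 351, 338, 339, 322 and 306 without FR replicates 1 to 5), and 0 to 1 of the 6 genes (ZAR1, without VMAT replicate 2). The DESeq2 runs without single samples were chosen after seeing the data, and 7874 to 9325 genes were tested in them. Of all log2 fold changes and counts of the 6 genes under the alternatives, 27 changed sign. In VIM vs. FR, ZAR1 turned to 0.41 in edgeR and 0.50 in DESeq2. In VIM vs. VMAT, ZP2 turned to -0.16 in edgeR and -0.10 in DESeq2, KPNA7 to -0.24 in edgeR and ZP4 to 0.027 in DESeq2. Leaving out single samples gave, in VIM vs. FR, -1.66 to 0.27 for ZP2, -1.41 to 0.28 for ZP4 and -0.98 to 0.97 for ZAR1. In VMAT vs. FR it gave -2.07 to 0.94 for ZP2, -1.80 to 0.27 for ZP4 and -2.11 to 0.22 for KPNA7, and in DESeq2 ZP2 was 0.12 without VMAT replicate 1 and 0.029 without FR replicate 4, ZP4 0.065 without VMAT replicate 2 and 0.12 without FR replicate 5, and KPNA7 0.018 without FR replicate 1. In limma alone the lowest value of ZP2 was -1.996 (without VMAT replicate 3). In VIM vs. VMAT it gave -1.48 to 1.45 for ZP2, -1.10 to 1.11 for ZP4 and -0.63 to 1.70 for KPNA7. The cause of these changes was not tested. Samples of the same replicate number did not deviate together (r of -0.03 to 0.01 over 10 pairs). Those of different numbers had r of -0.03 to 0.05 over 37 pairs. This cannot show that the pools were unpaired, since FR and VMAT oocytes were matured together. The paper set the replicate as a random effect in its models of survival and maturation rates. Here the main fits took the samples as unpaired. With the number as a replicate block, 0 genes were DE in each comparison, and ZP2 turned to -0.34 in VIM vs. VMAT and to 0.47 in VMAT vs. FR. Values of 1 to 8 reads limit the lowest levels of ZP2 and ZAR1.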
